A study of Mus musculus with 32 samples.

Results

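The small leucine-rich proteoglycans were followed through Dcn (decorin), Bgn (biglycan), Aspn (asporin), Fmod (fibromodulin), Lum (lumican), Prelp and Ogn (osteoglycin, also called mimecan). Every probe set annotated to 1 of these 7 genes, or to an older name of it, was taken, without regard to its values. Out of 18194 genes with a probe set of their own, these 7 had 18 probe sets of the 45265 on 2 Affymetrix array types, with 17 on the first type (array A, 22690 probe sets) and 1 on the second (array B, 22575 probe sets). A probe set is a group of short oligonucleotides whose signals are combined into 1 value for a transcript.

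The arrays measured total RNA of mouse embryonic fibroblasts, cultured connective tissue cells taken early after isolation. The 16 RNA extracts, each run on both array types, formed 4 groups of 4 replicates: irradiated Oct-1 mutant, unirradiated Oct-1 mutant, irradiated wild type and unirradiated wild type. Oct-1, the product of Pou2f1, is a transcription factor that binds octamer DNA elements. The mutant allele, the mouse strain, the age of the embryos, the radiation dose and the time after it do not appear in the labels, and neither does whether replicates came from separate embryos or cultures. The tests thus measure spread among these extracts alone, which may be technical, and their precision is limited to what 4 arrays per group allow.

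Small leucine-rich proteoglycans are secreted proteins of connective tissue built around a curved domain of leucine-rich repeats, most of which carry glycosaminoglycan chains or related sugars. They bind fibrillar collagen and set the spacing and thickness of its fibrils, and several of them also bind growth factors, TGF-beta above all. Dcn, Bgn and Aspn belong to class I, Fmod, Lum and Prelp to class II, and Ogn to class III. Fibroblasts are a main source of Dcn, Lum and Bgn in skin, tendon and other soft connective tissue.

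Some facts about the whole series bear on the results. Genotype and sex-linked transcripts fell on the same extracts. Xist, transcribed from the inactive X chromosome, lay at 3.16 to 3.29 log2 units in the 8 mutant extracts and at 8.19 to 9.78 in the 8 wild type extracts, and the Y-linked Eif2s3y lay at 8.46 to 9.32 in mutant and at 3.00 to 4.02 in wild type extracts. The effects of genotype and of sex cannot be told apart in any comparison of mutant with wild type. The annotation gave 0 probe sets for Pou2f1, so the mutated gene itself was not analysed here. The irradiation labels could be checked: averaged over genotype, Cdkn1a (1.31) and Mdm2 (1.67) were higher and Plk1 (-1.71) was lower in irradiated extracts, as log2 differences. The number in the sample titles falls into 2 runs, replicates 1 and 2 in the first and replicates 3 and 4 in the second, and 47.4% of the probe sets tested on array A differed between these runs. What the number run stands for is not given. All 12 fibroblast markers looked up, among them Col1a1, Thy1 and Pdgfra, were above the filter on low values described next, and all 5 endothelial markers were below it. Other measured markers also reached it: 5 of 5 neural, 5 of 6 smooth muscle and pericyte, 4 of 5 tendon and 3 of 4 adipocyte. So did 3 of 6 macrophage and blood, 3 of 6 epithelial, 2 of 8 cartilage and bone and 1 of 7 skeletal muscle markers.

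Tests used limma on the deposited log2 values with 1 mean per group, and p-values were adjusted over all 13582 probe sets of array A whose mean reached 4.96, the 40th percentile. An adjusted p under 0.05 is referred to as a call. Of the 18 probe sets of the family, 15 passed that filter and were tested, all on array A and all with each of the 4 group means above the filter, and every gene kept at least 1. The other 3 (a second probe set each of Dcn, on array B, Fmod and Prelp) are given as values only. On Affymetrix arrays, names that end in _s_at or _x_at mark probe sets whose oligonucleotides can match more than 1 transcript.

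Averaged over irradiation, 5 of the 7 genes were higher in Oct-1 mutant than in wild type fibroblasts, 1 was lower and 1 was not called. Dcn was 4.04-fold, Prelp 4.19-fold, Lum 2.76-fold, Fmod 2.04-fold and Aspn 1.64-fold higher by the probe set with the highest mean of each gene, Ogn was lower (0.795-fold), and Bgn was at 1.09-fold, not called. By probe set, 9 of 15 were called higher and 1 lower, where 6.57% of all tested probe sets were called higher, 4.02% lower and 10.6% either way. Their median log2 difference was 0.71, and the median of all 13582 was 0.00. In 7 of the 15 every mutant extract lay above every wild type extract, which held for 1.72% of all tested probe sets. The 7 genes were chosen with earlier results of these data known, so these shares describe the family and do not test it. Several of the called probe sets belong to Fmod alone.

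**Figure D1:**
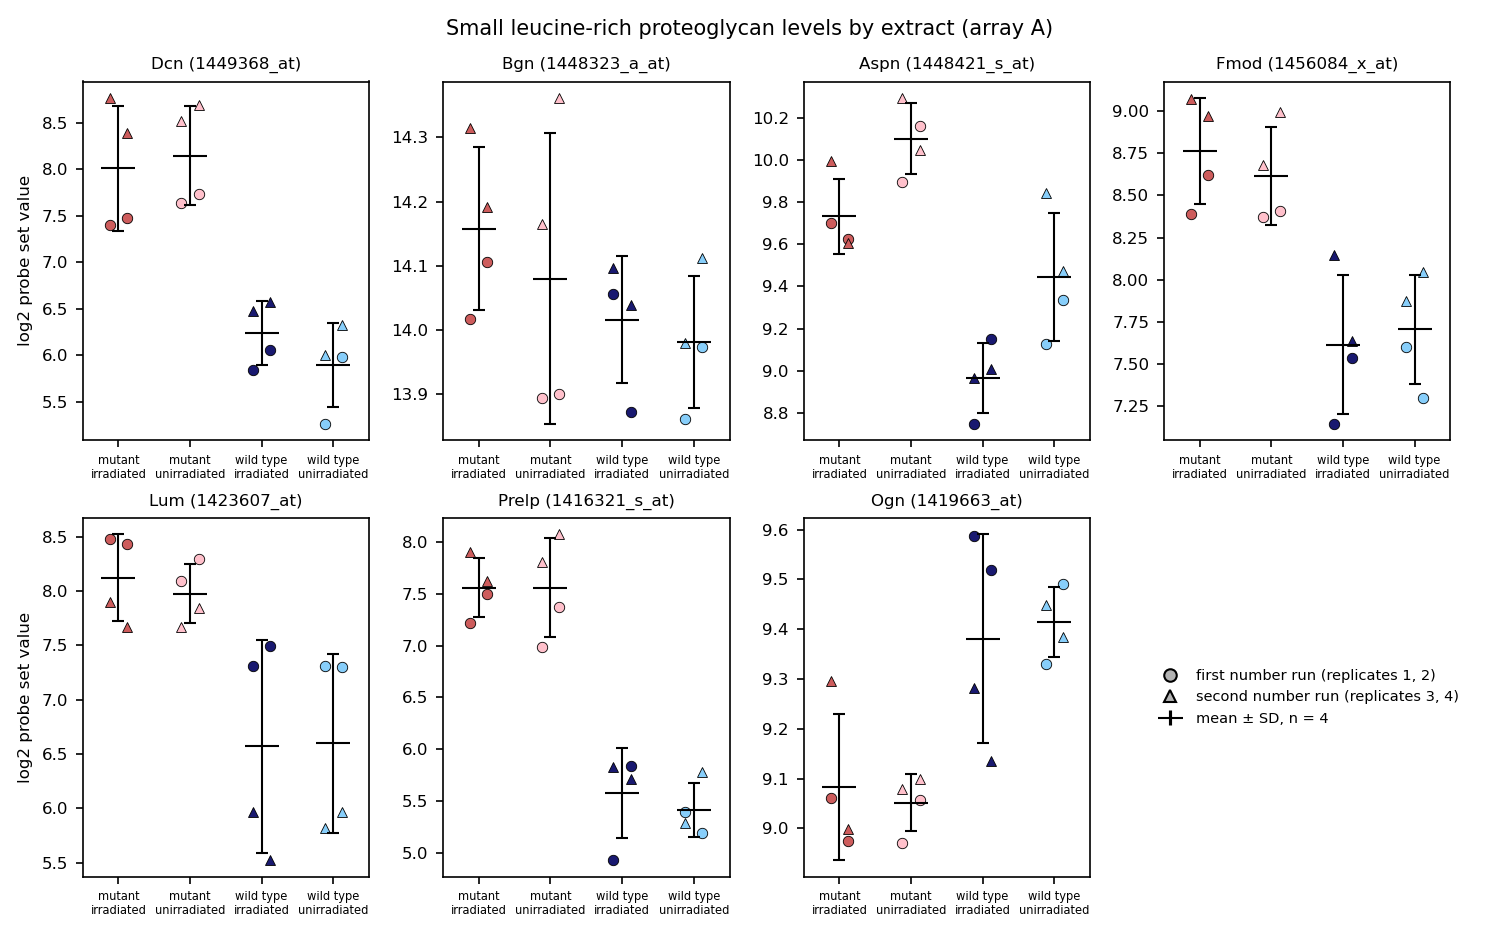
Log2 probe set value (vertical axis, own scale in each panel) in each of the 16 extracts for the array A probe set with the highest mean of each gene. Groups run from irradiated mutant on the left to unirradiated wild type on the right, circles are replicates 1 and 2, triangles replicates 3 and 4, and bars give mean ± SD (n = 4). Dcn, Lum, Fmod and Prelp lie higher in both mutant groups with no overlap, Ogn lies lower, and Bgn overlaps throughout.

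Among class I genes, Dcn, which binds type I collagen and TGF-beta, had the widest difference. Its array A probe set (1449368_at) read 7.41, 7.48, 8.77 and 8.39 log2 units in irradiated mutant replicates 1 to 4 and 7.64, 7.74, 8.52 and 8.70 in unirradiated mutant replicates. Irradiated wild type replicates read 5.85, 6.06, 6.48 and 6.57, and unirradiated wild type replicates 5.26, 5.98, 6.01 and 6.32. Every mutant extract was above every wild type extract, and within each group replicates 3 and 4 were above replicates 1 and 2. The group means were 8.01 ± 0.67 and 8.15 ± 0.54 in irradiated and unirradiated mutant cells, and 6.24 ± 0.34 and 5.89 ± 0.45 in irradiated and unirradiated wild type cells (SD, n = 4 each). Mutant minus wild type was 2.01 (SE 0.23, limma adjusted p 2.67e-05), with 1.77 (SE 0.33, adjusted p 0.00468) in irradiated and 2.25 (SE 0.33, adjusted p 0.000609) in unirradiated cells. The second Dcn probe set, 1441506_at on array B, was dim, with group means of 3.18 to 3.22, below the filter of 3.36, and was not tested.

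Aspn, a class I protein with a run of aspartate residues that binds collagen and TGF-beta, was higher by both of its probe sets. By 1416652_at, irradiated and unirradiated mutant means were 9.92 ± 0.17 and 9.84 ± 0.18, and irradiated and unirradiated wild type means were 8.99 ± 0.16 and 9.13 ± 0.05 (SD, n = 4 each). All 8 mutant extracts, at 9.70 to 10.12, lay above all 8 wild type extracts, at 8.78 to 9.17. The difference was 0.82 (SE 0.07, adjusted p 1.59e-06), and it was called in irradiated (0.93) and in unirradiated cells (0.71). By 1448421_s_at the difference was 0.71 (SE 0.10, adjusted p 0.00019). There the genotypes overlapped, because unirradiated wild type replicate 3, at 9.85, was above the lowest mutant extract, at 9.61.

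Bgn, the X-linked class I gene whose protein also acts on innate immune receptors, was near the top of the array scale in all extracts. Its probe set of highest mean, 1448323_a_at, read 14.02, 14.11, 14.32 and 14.19 in irradiated and 13.89, 13.90, 14.16 and 14.36 in unirradiated mutant replicates 1 to 4. Irradiated wild type replicates read 14.06, 13.87, 14.10 and 14.04, and unirradiated wild type replicates 13.86, 13.97, 13.98 and 14.11. The groups overlapped, as they did for the other 2 probe sets. The 3 differences were 0.12 (SE 0.07), 0.16 (SE 0.06) and 0.09 (SE 0.06), none called, with adjusted p between 0.0795 and 0.443. With the replicate number as a block, under which 22.5% of tested probe sets were called for the averaged difference, 1437889_x_at was called (0.16, adjusted p 0.007), also in irradiated cells alone (0.20, adjusted p 0.0284 with the block and 0.221 without).

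Class II genes were all higher in the mutant. Prelp, a basic protein that links collagen to basement membrane heparan sulfate, read 7.21, 7.49, 7.91 and 7.62 in irradiated and 6.98, 7.37, 7.80 and 8.07 in unirradiated mutant replicates by 1416321_s_at. It read 4.92, 5.84, 5.82 and 5.71 in irradiated and 5.40, 5.19, 5.28 and 5.78 in unirradiated wild type replicates. The lowest mutant value, 6.98, was above the highest wild type value, 5.84, and the smallest adjusted p of the family belonged to this probe set: 2.07 (SE 0.17, adjusted p 8.27e-07). Within irradiated cells the difference was 1.99 (SE 0.24) and within unirradiated cells 2.15 (SE 0.24), both called. The other Prelp probe set, 1416322_at, had a mean of 4.55, under the filter, with group means of 4.96 and 4.54 in irradiated and unirradiated mutant cells and 4.37 and 4.34 in irradiated and unirradiated wild type cells.

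Lum, a keratan sulfate proteoglycan of cornea, skin and tendon, was measured by 1423607_at alone. Irradiated mutant replicates 1 to 4 read 8.48, 8.44, 7.90 and 7.67, and unirradiated mutant replicates 8.09, 8.29, 7.67 and 7.84. Wild type replicates read 7.31, 7.49, 5.96 and 5.52 with irradiation and 7.31, 7.30, 5.82 and 5.96 without. All mutant extracts were above all wild type extracts, but the wild type groups were split by number run, with replicates 3 and 4 well below replicates 1 and 2. Averaged over irradiation the difference was 1.46 (SE 0.30, adjusted p 0.00505). In irradiated cells it was 1.55 (SE 0.43, adjusted p 0.0605) and in unirradiated cells 1.38 (SE 0.43, adjusted p 0.1), neither called. With the replicate number as a block both were called, at adjusted p 0.000139 with irradiation and 0.00039 without.

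Fmod, a keratan sulfate proteoglycan that binds type I collagen and modifies its crosslinking, had 5 tested probe sets, of which 4 were called higher. By the brightest, 1456084_x_at, irradiated mutant replicates read 8.39, 8.62, 9.07 and 8.97 and unirradiated mutant replicates 8.37, 8.41, 8.68 and 9.00. Wild type replicates read 7.15, 7.54, 8.15 and 7.64 with irradiation and 7.60, 7.30, 7.87 and 8.05 without. No mutant extract fell within the wild type range, and the difference was 1.03 (SE 0.15, adjusted p 0.000396). The other called probe sets differed by 0.81 (1437718_x_at), 0.71 (1437685_x_at) and 0.68 (1415939_at), and the uncalled 1438966_x_at by 0.22 (SE 0.10, adjusted p 0.202). The dim 1437324_x_at, untested, had group means of 3.86 and 3.54 in irradiated and unirradiated mutant cells and of 3.22 and 3.21 in irradiated and unirradiated wild type cells. Within irradiated cells 4 Fmod probe sets were called and within unirradiated cells 2, with 1437718_x_at and 1437685_x_at called there only with the replicate block (adjusted p 0.00513 and 0.0113, against 0.0579 and 0.129 without it).

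Ogn, a class III protein found in bone, tendon and vessel wall, ran the other way. By 1419663_at, irradiated mutant replicates read 9.06, 8.98, 9.30 and 9.00 and unirradiated mutant replicates 8.97, 9.06, 9.08 and 9.10. Irradiated wild type replicates read 9.59, 9.52, 9.28 and 9.14, and unirradiated wild type replicates 9.33, 9.49, 9.45 and 9.38. Without irradiation every mutant extract lay below every wild type extract, and with irradiation the groups overlapped. The averaged difference was -0.33 (SE 0.07, adjusted p 0.00507), and -0.36 (adjusted p 0.0502, 0.0201 with the replicate block) in unirradiated cells. The second probe set, 1419662_at, gave a similar average of -0.35 with a wider error (SE 0.12, adjusted p 0.0708). It was called with the replicate block (0.0212), as was its irradiated difference of -0.52 (0.0274, against 0.103 without).

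**Figure D2:**
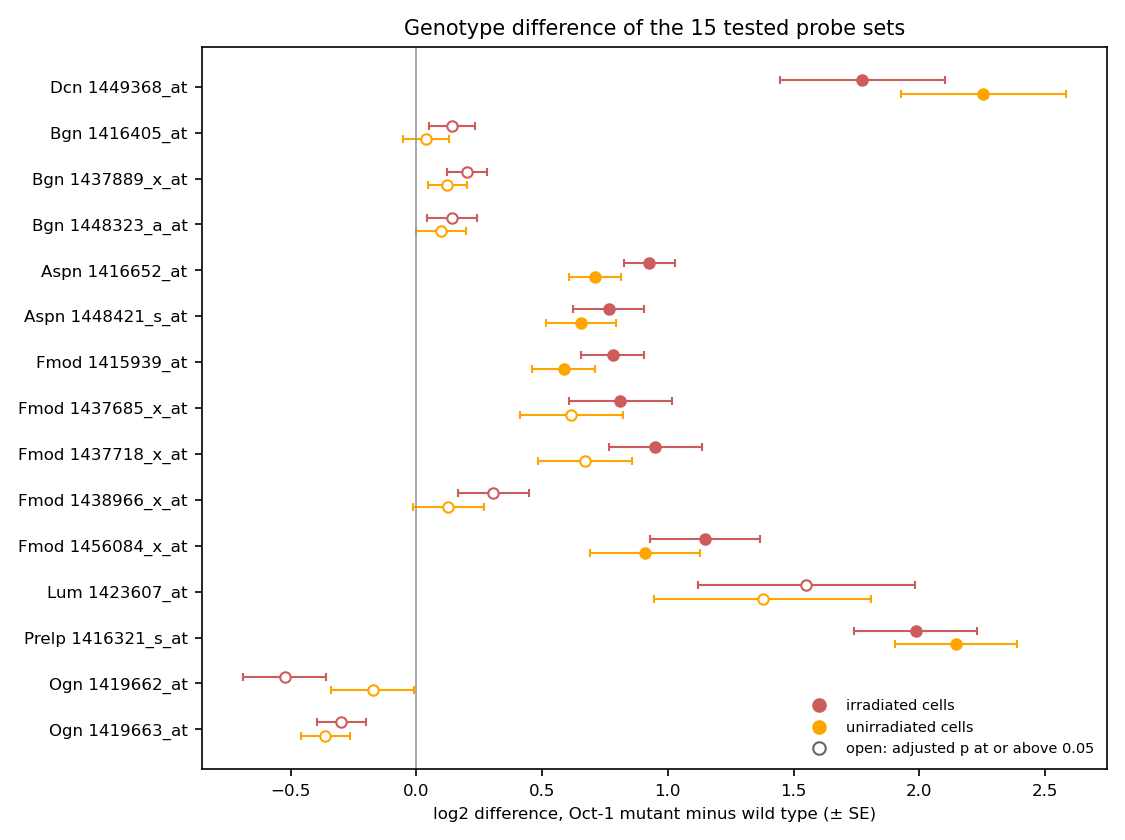
Log2 difference, Oct-1 mutant minus wild type, with its SE (horizontal axis) for the 15 tested probe sets, in irradiated cells (red, upper point) and unirradiated cells (orange, lower point). Filled points were called at an adjusted p under 0.05. Dcn, Prelp, both Aspn probe sets and 2 of 5 Fmod probe sets are filled in both states, Lum lies at 1.55 and 1.38 with wide errors, and both Ogn probe sets lie below 0.

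Taken by irradiation state, 8 probe sets were called in irradiated cells, all higher in the mutant, where 3.8% of tested probe sets were called either way. In unirradiated cells 6 were called, all higher, against a background of 3.87%. With the replicate block 10 were called there, 9 higher and Ogn 1419663_at lower, against 11.1% of all tested probe sets, and 11 in irradiated cells against 10.4%. Without the block the unirradiated count was 3 without unirradiated mutant replicate 3, and again 3 without unirradiated wild type replicate 1. The member medians were 0.78 and 0.62, with 0.00 over all tested probe sets in both states. The genotype difference with irradiation minus that without it ran from -0.48 for Dcn to 0.28 for Fmod 1437718_x_at. None of these 15 differences was called by limma (all with adjusted p 1), and the smallest unadjusted p among them was 0.153. Over array A 0 of 13582 probe sets were called for it (0%), and 147 had an unadjusted p under 0.05, fewer than chance alone would give. This fit has no term for the number run, so run differences stay in its spread and a small interaction could be missed.

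By the probe set of highest mean of each gene, both mutant means stood above both wild type means in 6 genes and below them in Ogn. In Bgn this order was within the spread, as the unirradiated mutant mean of 14.08 ± 0.23 and the irradiated wild type mean of 14.02 ± 0.10 lay closer than their SD. Neighbours in the order that share a genotype differed by 0.00 to 0.34 log2 units in all genes but Aspn, less than the SD within at least 1 of the 2 groups. Aspn 1448421_s_at averaged 9.73 ± 0.18 in irradiated and 10.10 ± 0.17 in unirradiated mutant cells, and 8.97 ± 0.17 in irradiated and 9.45 ± 0.30 in unirradiated wild type cells (SD, n = 4 each). Its neighbouring groups overlapped.

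For irradiation averaged over genotype, 1 of the 15 probe sets was called, and it was lower. Over all tested probe sets 5.47% were called lower and 12.8% either way, so 1 call of 15 is near the background. The called probe set was Aspn 1448421_s_at, with a log2 difference of -0.42 (SE 0.10, adjusted p 0.0102), and the other Aspn probe set gave -0.02. Irradiated mutant replicates read 9.70, 9.62, 9.99 and 9.61 and unirradiated ones 9.90, 10.16, 10.29 and 10.05. In wild type cells the irradiated replicates read 8.75, 9.15, 8.96 and 9.01 and the unirradiated ones 9.13, 9.34, 9.85 and 9.47. In all 8 pairs of the same genotype and replicate number the irradiated extract was the lower one, although the ranges overlapped in both genotypes. Within mutant cells the difference was -0.37 and within wild type cells -0.48, neither called without the replicate block (adjusted p 0.17 and 0.0794) and both called with it (0.0192 and 0.00433). Without the block 4.65% of tested probe sets were called in mutant and 3.84% in wild type cells, and with it 12.8% and 10.4%, so 1 of 15 is not above the background. Without unirradiated wild type replicate 1, the wild type difference was -0.58 and called (adjusted p 0.0338). In the first number run alone the averaged difference was -0.32 and not called (adjusted p 0.0627).

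The second Aspn probe set did not follow. By 1416652_at the difference was 0.08 in mutant and -0.13 in wild type cells, and -0.02 on average (SE 0.07, adjusted p 0.885). Dcn was at 0.10 (SE 0.23), Lum at 0.06 (SE 0.30), Prelp at 0.08 (SE 0.17), Ogn 1419663_at at 0.00 (SE 0.07) and Bgn 1448323_a_at at 0.06 (SE 0.07), none called. The 5 Fmod probe sets lay between 0.03 and 0.14. The median of the 15 was 0.05, with 0.01 over all tested probe sets. Of 12 fibroblast markers, 5 were lower in irradiated extracts, averaged over genotype: Pdgfra (-0.72), Pdgfrb (-0.56), Twist1 (-0.49), Prrx1 (-0.42) and Twist2 (-0.36). The other fibroblast markers were not called, and the list median was -0.03. Of 4 tested tendon markers 1 was called, Mkx on array B, which was higher (0.72). Of 3 tested adipocyte markers 1 was called, Pparg, which was lower (-0.44). Over all genes, each by its probe set of highest mean, 10.5% were called either way. The part of these markers in the Aspn result was not tested. In such bulk extracts fewer cells of a type and less RNA per cell cannot be told apart.

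**Figure D3:**
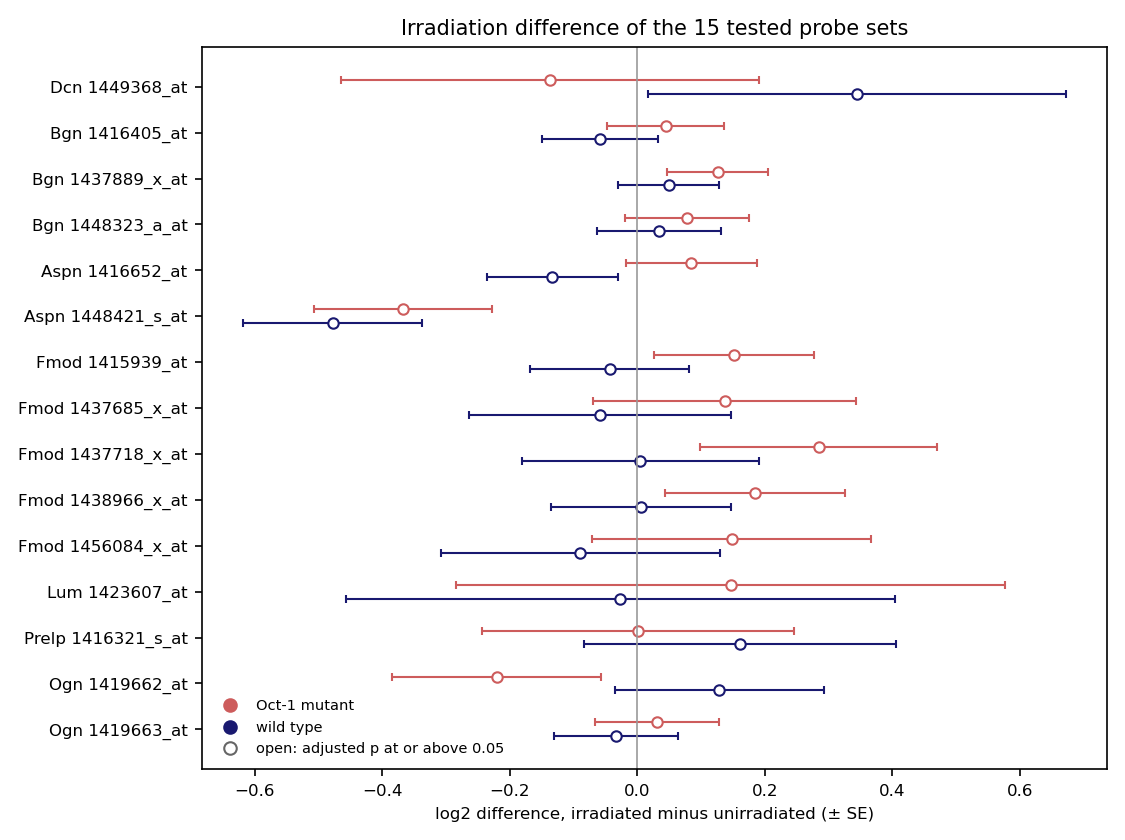
Log2 difference, irradiated minus unirradiated, with its SE (horizontal axis) for the 15 tested probe sets, in Oct-1 mutant (red, upper point) and wild type (blue, lower point) fibroblasts. All points are open, as none was called within a genotype. Aspn 1448421_s_at stands lowest in both genotypes, at -0.37 and -0.48, while the second Aspn probe set lies near 0.

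The members differed between the number runs as well as between genotypes, so the genotype difference was also taken within each run, in a model with 4 means of genotype and run plus irradiation that was added after the values had been seen. By this model, and with 14.3% of tested probe sets called in the second and 12.4% in the first run, Dcn was higher in the mutant by 2.25 in the second and 1.78 in the first run. In the same order Prelp was higher by 2.20 and 1.93, Fmod 1456084_x_at by 1.01 and 1.05, and Aspn 1448421_s_at by 0.66 and 0.76, all called. Other Fmod probe sets were less even: 1437685_x_at was higher by 1.03 and 0.40, 1437718_x_at by 0.94 and 0.68, and 1415939_at by 0.82 and 0.54, all called. Fmod 1438966_x_at was at 0.35 and 0.08, called in neither run. Lum was higher by 1.96 in the second run and by 0.97 in the first. The change in the Lum difference, 0.99 (SE 0.15, adjusted p 0.0104), was the only 1 of the 15 called, where 22 of 13582 probe sets (0.162%) were. The change of Fmod 1437685_x_at, 0.62 (SE 0.13, limma adjusted p 0.0565), was just short of a call. Ogn 1419663_at was at -0.19 in the second run (not called, adjusted p 0.122) and at -0.47 in the first (called), and the change, 0.27, was not called. Bgn was called higher in the second run by all 3 probe sets. The differences were 0.20 for 1448323_a_at, 0.18 for 1437889_x_at and 0.19 for 1416405_at (limma adjusted p 0.0287, 0.0299 and 0.00553). In the first run they were 0.04, 0.14 and -0.0025, none called, and no change between runs was called.

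Between runs Lum moved against Dcn and Fmod. It was lower in the second run by log2 differences of -0.55 in mutant and -1.54 in wild type cells, both called, where 30.7% and 33% of tested probe sets were called. Dcn was higher in the second run by 1.03 in mutant and 0.56 in wild type cells, and Fmod 1456084_x_at by 0.48 and 0.53, all called. In mutant cells Fmod 1437685_x_at, 1437718_x_at and 1415939_at were also higher in the second run, by 0.73, 0.47 and 0.34, all called. In wild type cells these were at 0.10, 0.22 and 0.06, none called. Fmod 1438966_x_at was at 0.28 in mutant and 0.02 in wild type cells, called in neither. Ogn 1419662_at was lower in the second run too, in wild type cells (-0.44, adjusted p 0.0118). There the brighter Ogn 1419663_at was at -0.17 (limma adjusted p 0.119, not called). In mutant cells 1419662_at and 1419663_at were at 0.08 and 0.10, neither called. Dcn and Lum thus shared the direction of the genotype difference and not that of the run difference.

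**Figure D4:**
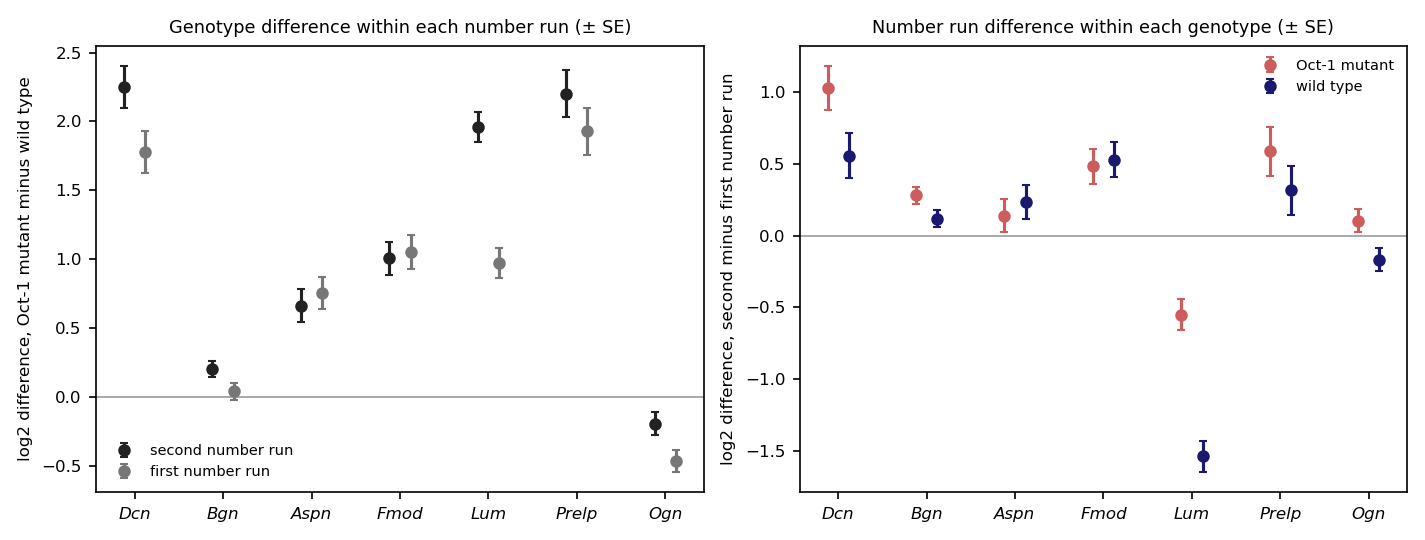
Left, log2 difference of Oct-1 mutant minus wild type within the second (black) and first (grey) number run. Right, log2 difference of the second minus the first run within mutant (red) and wild type (blue) cells. Points are model estimates ± SE for the probe set with the highest mean of each gene. Lum has genotype differences of 1.96 and 0.97 and lies at -0.55 and -1.54 on the right.

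Among the 7 genes, 3 pairs lie next to or near each other in the mouse genome, by RefSeq gene order on GRCm38.p6. Dcn and Lum are neighbours on chromosome 10, and both were higher in the mutant. Prelp and Fmod are neighbours on chromosome 1, and both were higher too. That chromosome also holds Pou2f1, with 206 protein-coding genes between it and Fmod. Aspn and Ogn are separated on chromosome 13 by Omd alone, and here the directions were opposite, 0.71 for Aspn and -0.33 for Ogn. Other genes beside these pairs that could be tested were not called, among them Btg1 (-0.14) and Eea1 (-0.02) near Dcn, Btg2 (0.04) and Atp2b4 (0.08) near Fmod and Prelp, and Nol8 (-0.18) and Cenpp (-0.01) near Ogn and Aspn. The family members Kera, Epyc, Omd, Optc and Ecm2 that lie within 3 genes of these were below the filter. Beside Bgn on the X chromosome, Haus7 was higher (0.28, adjusted p 0.0142) and Dusp9 lower (-0.48, adjusted p 0.0109) in the mutant.

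RefSeq promoter entries were matched for 5 of the 7 genes (all but Dcn and Lum). The promoters of 2 neighbouring pairs are shown, since Prelp and Fmod shared a direction, Aspn and Ogn did not, and Oct-1 binds the octamer. Each line gives the 250 bases before the RefSeq gene start (GRCm38.p6), 5′ to 3′ on the gene's own strand. Capitals would mark an octamer, and none was found.
Prelp, chr1:133921402-133921651, minus strand: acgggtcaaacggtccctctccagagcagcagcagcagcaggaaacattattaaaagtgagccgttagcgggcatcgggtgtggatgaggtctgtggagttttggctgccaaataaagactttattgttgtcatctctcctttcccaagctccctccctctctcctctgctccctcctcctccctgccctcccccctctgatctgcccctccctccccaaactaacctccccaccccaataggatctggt
Fmod, chr1:134037004-134037253, plus strand: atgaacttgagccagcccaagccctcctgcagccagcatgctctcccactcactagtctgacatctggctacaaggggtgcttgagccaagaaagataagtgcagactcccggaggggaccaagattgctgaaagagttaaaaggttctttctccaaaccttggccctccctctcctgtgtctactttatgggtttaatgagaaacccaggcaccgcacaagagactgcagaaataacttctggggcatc
Aspn, chr13:49544193-49544442, plus strand: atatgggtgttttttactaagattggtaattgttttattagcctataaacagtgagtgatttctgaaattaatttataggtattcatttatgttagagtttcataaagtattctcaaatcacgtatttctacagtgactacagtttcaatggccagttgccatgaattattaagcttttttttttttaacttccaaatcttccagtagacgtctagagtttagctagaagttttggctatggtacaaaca
Ogn, chr13:49607765-49608014, plus strand: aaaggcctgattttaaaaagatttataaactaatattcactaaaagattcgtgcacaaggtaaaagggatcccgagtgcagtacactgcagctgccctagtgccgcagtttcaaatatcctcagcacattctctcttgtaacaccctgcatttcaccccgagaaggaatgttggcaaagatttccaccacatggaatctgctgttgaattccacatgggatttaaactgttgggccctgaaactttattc

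The octamer ATGCAAAT was searched on both strands (ATTTGCAT on the other), exactly and with up to 1 mismatch. These 4 promoters and that of Bgn held 0 matches of either kind, while 1.6% of all 32851 promoters of this length held an exact match and 16.6% a match with up to 1 mismatch. GC content was 55.6% for Prelp, 51.2% for Fmod, 30.0% for Aspn, 42.0% for Ogn and 64.4% for Bgn, with a median of 52.4% over all promoters. The Aspn and Ogn promoters are thus the more AT-rich pair of the family entries. An absent match says only that these letters are not in this window.

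Across the 16 extracts, with run means removed, the 4 genes with the widest genotype difference followed each other most closely. Pearson's r was 0.97 between Dcn and Prelp, 0.96 between Fmod and Prelp, 0.95 between Lum and Prelp, and 0.94 between Dcn and Lum. Without removal of run means, Dcn and Lum correlated at 0.54. Aspn correlated with these 4 at 0.73 to 0.77 and Bgn at 0.57 to 0.71, and Ogn ran against them at -0.61 to -0.79. These values describe extracts that share the genotype and irradiation groups and carry no test.

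By the same measure, over 12527 to 12531 candidate probe sets, the transcripts most like Dcn were Selenop (0.98), Dlk1 (0.97) and Igfbp3 (0.97). Igfbp3 was also among the nearest to Lum (0.98, after Lama4 at 0.98) and to Prelp (0.98, before Tmem176b and Slit3), and a probe set of Fmod was the third nearest to Lum (0.98). Fmod itself was closest to Prelp (0.96), then Txnip and H2ac19. Aspn was closest to Fzd6 (0.95) and Adamts5 (0.95), Bgn to Adam15 (0.91), and Ogn to Fam3c (0.92).

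The family was then set beside the genes that build, bind or cut these proteins, each gene by its probe set of highest mean. Over all 12425 genes measured that way, 5.34% were called higher and 3.13% lower in the mutant (8.47% either way), with a median of 0.02. With the replicate block 17.4% were called, the share against which the blocked counts of these lists stand. Of 10 other small leucine-rich proteoglycans and relatives only 3 could be tested, Chad (-0.11), Podn (0.09) and Nyx (0.09), and none was called. Among 28 tested genes for glycosaminoglycan chains, 4 were higher and 1 lower (7 and 3 with the replicate block), with a median of 0.10. The sulfate transporter gene Slc26a2 was higher by 0.36 (SE 0.07, adjusted p 0.00228), and the chondroitin synthase Chsy3 and the sulfotransferase Chst15 by 0.32 each. The galactosyltransferase gene B4galt4, the fourth, passed the filter through the mutant groups, with means of 5.66 and 5.82 in irradiated and unirradiated mutant cells and 4.82 and 4.97 in irradiated and unirradiated wild type cells, and another sulfotransferase gene, Chst7, was lower (-0.44).

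Of 11 tested collagens that the family binds, Col6a2 was higher (0.39, SE 0.08, adjusted p 0.00523) and the list median was 0.21. With the replicate block 7 were higher, among them Col1a2 (0.19) and Col3a1 (0.25), and Col5a3 was lower (-0.17). Of 16 genes for collagen processing and crosslinking, the lysyl oxidase Lox was higher (0.23) and the procollagen protease gene Tll1 lower (-0.26), with 4 higher and 2 lower under the block. The list median was 0.12.

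Among 18 ligands, receptors and partners, 3 were higher and 1 lower (10 and 3 with the block), with a median of 0.17. Eln, elastin, was higher by 0.56, the TGF-beta receptor genes Tgfbr1 and Tgfbr2 by 0.38 and 0.35, and Met, a receptor that decorin protein binds, was lower (-0.71, SE 0.13, adjusted p 0.0106). Of 8 tested proteases that cut family members, 4 were higher and none lower, with a median of 0.42: Adamts5 (0.73), Adamts9 (0.71), the gelatinase Mmp2 (0.63) and Adamts1 (0.55). Of 15 other proteoglycans, 4 were higher, the glypican genes Gpc3 (0.65) and Gpc6 (0.35), Vcan, versican (0.62), and Sdc2, a syndecan (0.46), and 2 lower, Gpc1 (-0.58) and Col18a1 (-0.52), with a median of 0.16.

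**Figure D5:**
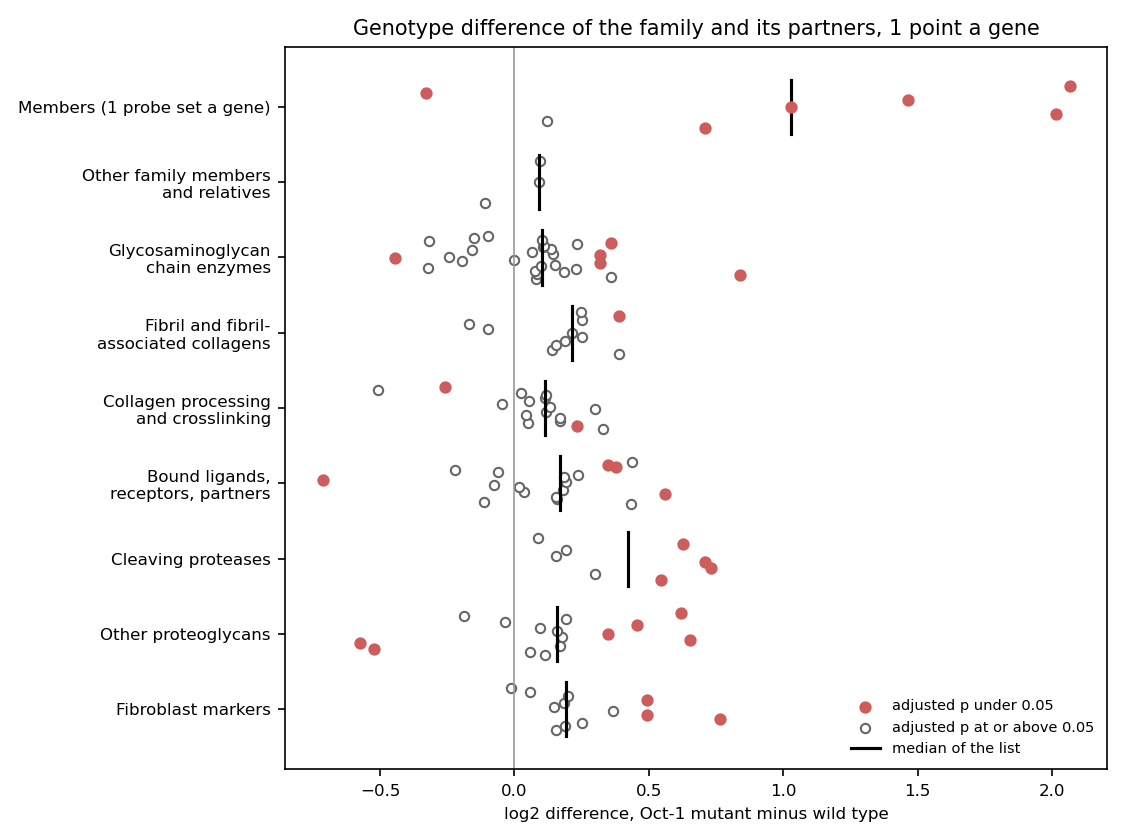
Log2 difference, Oct-1 mutant minus wild type, averaged over irradiation (horizontal axis), 1 point for each tested gene by its probe set of highest mean, with lists down the page. Filled points were called, open points were not, and the vertical bar is the list median, 1.03 for the 7 members and between 0.09 and 0.42 for the other lists. Dcn, Prelp and Lum lie beyond every gene of the other lists.

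Markers of cell type moved with genotype too. Of the 12 fibroblast markers 3 were higher in the mutant, Fap (0.76), Pdgfra (0.49) and Thy1 (0.49), and 9 with the replicate block, where 17.4% of all genes were called. Their summed log2 level was 137.68 to 141.71 and 140.13 to 143.83 in irradiated and unirradiated mutant extracts, and 134.69 to 137.35 and 137.54 to 140.22 in irradiated and unirradiated wild type extracts. Among 5 tendon markers Tnmd was higher (0.31), with Kera below the filter and list sums of 31.33 to 33.25 in mutant and 30.90 to 32.28 in wild type extracts. Of 8 measured cartilage and bone markers only 2 reached the filter, Col2a1, lower in the mutant (-1.27, SE 0.11, adjusted p 9.12e-07), and Sox9, at 0.28 (adjusted p 0.0604, 0.0129 with the block). Of 3 tested adipocyte markers 1 was called, Fabp4, which was lower (-0.52), with a list median of -0.13. Of 5 tested neural markers 1 was called, Map2, also lower (-0.80), with a list median of -0.16. The epithelial Krt18 passed the filter through the mutant groups alone, with means of 5.17 and 5.31 in irradiated and unirradiated mutant cells and 4.80 and 4.76 in irradiated and unirradiated wild type cells. The part of these markers in the genotype differences of the family was not tested.

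For irradiation averaged over genotype, 9 of the 96 tested partner genes (the lists above without the other family members and relatives) were called (9.38%), close to the 10.5% of all genes. Slc35d1, which carries nucleotide sugars for chondroitin sulfate, was higher by 0.99 (SE 0.13, adjusted p 0.000122) and the sulfotransferase gene Chst14 by 0.23, while Chst1 was lower (-0.31). Egfr, a receptor that decorin protein binds, was higher by 0.59, the lysyl hydroxylase Plod2 by 0.54, Col18a1 by 0.42 and the syndecan Sdc1 by 0.34. Adamts1 (-0.52) and Adamts4 (-0.54), both aggrecan-cutting proteases, were lower.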

How the data were processed

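The authors deposited log2 probe set values. The method that summarised them was not given in the sources used here. Log base 2 was inferred from the values, which spanned 0.26 to 15.75 (array A) and 0.1 to 15.51 (array B). No scaling was added, since the medians of single arrays differed little (6.16 to 6.28 for A, 3.67 to 3.78 for B). Depth does not apply to arrays. Probe sets were named from the platform annotation, with symbols updated through gene identifiers. Of the non-control probe sets, 20380 on array A had 1 gene, 691 several and 1606 none, and on array B 14661, 245 and 7656. Control probe sets (64 on each array) and those with a mean under the 40th percentile (4.96 on array A, 3.36 on array B) were left out.

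Separate fits per array type in limma 3.58.1 (R 4.3.3) had 4 group means, a variance trend, 7 comparisons and Benjamini-Hochberg adjustment over the 13582 (A) or 13502 (B) probe sets. The fit was tested on simulated data. Tables were made with pandas 2.3.3 and numpy 2.4.6, and plots with matplotlib 3.10.9, under Python 3.11.15. The members, gene lists and markers were chosen with earlier results of these data known. All member probe sets are given. Of partner lists every called gene was named, of marker and check lists some, with at most 6 in a list and comparison, and Sox9 and collagens called with the block were named after their values were seen. Likeness is Pearson's r, 3 genes per member. The replicate number of 1 unirradiated mutant sample is missing from its label and was taken from the other array with the same title number. Deviations from group means of same-numbered samples had r of 0.32 to 0.72 (array A) and 0.24 to 0.6 (array B), all above 0.1. Other samples of the same number run correlated nearly as well (medians 0.56 and 0.4, against 0.58 and 0.44 for the same number). Pairing by replicate number thus cannot be told apart from a shared number run. Alternatives were other filters (none, 60th percentile), quantile normalization, no variance trend, a replicate block, a number run block, each run alone and leaving out each extract.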

Additional observations from a re-analysis of the deposited data

Results flagged for a closer look

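In irradiated wild type cells, replicate 1 of Prelp 1416321_s_at stood apart at 4.92, where the other 3 replicates lay between 5.71 and 5.84. Its gap to the nearest replicate was 0.861 of the group's range, past Dixon's limit for 4 samples. Of the 72 groups of member values examined it was the only one past that limit, and chance alone sets off about 5% of groups. The Prelp difference averaged over irradiation stayed between 1.96 and 2.16 on leaving out each of the 16 extracts in turn.

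The genotype difference of Lum was larger in the second number run than in the first by 0.99 log2 units (SE 0.15, limma adjusted p 0.0104). The model that tests this was added after the values had been seen. Its 2 runs hold 4 mutant and 4 wild type extracts each, and in all of them mutant values were above wild type values of the same run and irradiation state.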

How the results depend on the processing

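Averaged over irradiation, 8 to 12 member probe sets were called for genotype under the other filters, quantile normalization, no variance trend, the blocks and each number run alone, and 10 to 11 on leaving out each extract, against 10 as reported. Leave-one-out counts were 7 to 9 for genotype with irradiation and 3 to 7 without it, 1 in each case for irradiation averaged over genotype, 0 in mutant cells, 0 to 1 in wild type cells and 0 for the interaction. With a replicate block or a number run block, 10 were called for genotype without irradiation, and 1 each for irradiation in mutant and in wild type cells (Aspn 1448421_s_at). In the first number run alone, 0 were called for averaged irradiation, and the genotype difference of Bgn 1416405_at (uncalled) changed sign to -0.0025. In the second run alone that difference was called (0.19, limma adjusted p 0.0281), as was that of Bgn 1437889_x_at (0.18, adjusted p 0.0493). Each run alone holds fewer samples. Apart from the calls given in the report, the replicate block changed no other call.

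With irradiation, Fmod 1437685_x_at was called at adjusted p 0.0384 and was not called in 7 of the 16 leave-one-out fits (up to 0.128), nor without a filter (0.0582) or after quantile normalization (0.0678). Lum, uncalled there, was called without irradiated wild type replicate 1 (0.0476) or 2 (0.0297). A set of 38 member differences, not every member comparison, was followed through the alternatives. Among these refits 834 kept direction and call, 49 gained a call, 22 lost one and 1 changed sign. What the number run stands for was not tested, and the number of arrays limits the precision of every small difference.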
